A study of Mus musculus with 15 samples.

Results

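The general endothelial markers are 10 genes whose RNA is found in most blood vessel linings and which are used to recognise endothelial cells in tissue: Pecam1, Cdh5, Kdr, Tek, Tie1, Emcn, Cd34, Plvap, Egfl7 and Vwf. They were taken as a fixed list of names, which was chosen with earlier results of these data known. They were found on the array by matching each probe's RefSeq accession to a gene symbol. All 10 were measured, by 13 probes, among 15594 genes tested, and all 10 were above background on 15 of 15 arrays.

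RNA was measured on 15 one-colour arrays, 1 per tissue sample, all from female FVB/N mice. Host mice were given monocrotaline, which damages hepatocytes and the lining of liver sinusoids, as 2 doses of 70 mg/kg spaced 2 weeks apart from an age of 7 to 9 weeks. They then received 1000000 hepatocytes beneath the kidney capsule, taken from donors of 8 to 20 weeks that carried the hA1AT transgene on the FVB/N background. After 250 to 300 days, at 48 to 55 weeks of age, 4 samples each were taken of host kidney, host liver and neo-liver, the liver-like tissue that had grown in the kidney. The comparison tissue, control liver, came from 3 normal mice of 20 weeks, so host and control livers differ in age, monocrotaline and transplant together. The labels do not say whether samples were pooled, and p-values measure the spread between these samples. Same-numbered host tissues were taken to come from 1 mouse.

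Endothelial cells line every vessel, and their lining differs from organ to organ. The capillaries of kidney glomeruli and tubules have fenestrae bridged or unbridged by diaphragms, whereas liver sinusoids have open pores, little basement membrane and a strong scavenger function. The 10 markers cover junction proteins (Pecam1, Cdh5), growth factor receptors and their relatives (Kdr, Tek, Tie1), surface sialomucins (Emcn, Cd34), the diaphragm protein Plvap, the secreted matrix-bound factor Egfl7 and the clotting protein Vwf.

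The promoters of Cd34 and Emcn, the pair of members that differed most between neo-liver and liver, are shown beside that of Tie1, which did not pass the test in any comparison. Sequences are the coding-strand bases upstream of the annotated start, from RefSeq on build GRCm38.p6. Capitals mark AGGAAG or its reverse complement CTTCCT, a core bound by ETS factors, the transcription factor family to which endothelial Erg and Fli1 belong. Cd34 lies at chr1:194938821-194961292 and its promoter, on the plus strand, at chr1:194938571-194938820. Emcn lies at chr3:137341062-137431069 with its promoter, also on the plus strand, at chr3:137340828-137341061. Tie1 lies at chr4:118471191-118489849 with its promoter, on the minus strand, at chr4:118489850-118490099.
Cd34: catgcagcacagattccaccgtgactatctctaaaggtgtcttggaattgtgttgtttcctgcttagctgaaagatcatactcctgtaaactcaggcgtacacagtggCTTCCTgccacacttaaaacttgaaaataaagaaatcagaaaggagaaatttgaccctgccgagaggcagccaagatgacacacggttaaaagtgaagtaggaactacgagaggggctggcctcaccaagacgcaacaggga
Emcn: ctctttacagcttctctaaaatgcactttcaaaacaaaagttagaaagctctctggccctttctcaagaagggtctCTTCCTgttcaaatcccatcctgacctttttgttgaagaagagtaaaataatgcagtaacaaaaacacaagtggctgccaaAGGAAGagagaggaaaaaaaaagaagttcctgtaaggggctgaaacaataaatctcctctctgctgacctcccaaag
Tie1: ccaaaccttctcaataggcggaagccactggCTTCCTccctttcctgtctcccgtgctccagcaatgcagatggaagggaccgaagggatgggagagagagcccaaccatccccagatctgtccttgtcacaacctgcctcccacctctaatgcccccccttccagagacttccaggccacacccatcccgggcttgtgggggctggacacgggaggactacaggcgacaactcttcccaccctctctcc
The core was present once in the Cd34 promoter, 142 to 137 bases before the start, and once in that of Tie1, 219 to 214 bases before it. In the Emcn promoter it occurred at 158 to 153 and at 77 to 72 bases before the start. Over both strands, the core was found in 5 of 8 promoter windows of the 6 members for which a window was available. Genome-wide it was found in 29.5% of 32851 windows of 250 bases. Some of the windows counted, of Kdr, Egfl7, Tek and Emcn, lie wholly or partly within the annotated gene. Several of the 8 windows, with and without the core, belong to Egfl7 alone, so windows do not stand for separate genes. The other motifs searched were GATAA, in 1 of the 8 windows against 22.6% of all, CACCC, in 4 against 52.0%, and ACAAAG, in 2 against 16.5%. These counts describe letters in the sequence only. Promoters of Pecam1, Cdh5, Plvap and Vwf were not used here.

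Levels below are log2 processed signal relative to the array's 75th percentile, so that 0 is the signal that 75% of probes do not exceed, and levels of different genes are not compared. That percentile lay at a signal of 559 to 871 in host kidney, 286 to 445 in host liver, 414 to 673 in neo-liver and 387 to 422 in control liver, with 46.4% to 67.6% of probes above background over all arrays and no saturated spot. Host kidney arrays lay on 1 slide of their own and were scanned on another day than all other arrays. Host liver replicates 1 and 2 lay on another slide, and replicates 3 and 4 on a further one. Neo-liver and control liver arrays shared 1 slide, so that only the comparison of neo-liver with control liver lies within a slide. In the other comparisons slide and tissue cannot be told apart, nor can scan day in those with host kidney. The labelled tissues carried their defining markers: the 10 hepatocyte genes summed to a linear level of 3874 to 6213 in neo-liver, 6732 to 10730 in host liver and 6664 to 7046 in control liver, against 5.82 to 6.35 in host kidney. Neo-liver arrays also carried kidney RNA. Markers of kidney tubules, 20 genes, summed to 166.7 to 483.9 in neo-liver and 1418 to 2141 in host kidney, against 1.80 to 2.50 in host liver and 2.01 to 2.11 in control liver, and 19 to 20 of the 20 were above background on each neo-liver array.

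Expressed as a share of the host kidney signal, the tubule markers stood at 17.5%, 39.9%, 15.3% and 31.8% in neo-liver replicates 1 to 4, a mean of 26.1% ± 11.7 (SD, n = 4). The 5 podocyte markers used in the same way gave 39.3%, 48.6%, 27.2% and 48.5%. Kidney tissue has vessels of its own, and these shares are set beside the members' values further on. In bulk tissue, fewer endothelial cells and less RNA per cell cannot be told apart.

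Emcn and Cd34 were highest in host kidney, intermediate in neo-liver and lowest in both livers, and Plvap was highest in host kidney and lowest in control liver. Vwf and Cdh5 were lower in host kidney than in the other 3 tissues, and Tek was higher there. Egfl7 was higher in host liver than in control liver and host kidney. Pecam1, Kdr and Tie1, each read from its brightest probe, did not pass the test in any of 6 comparisons.

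**Figure D1:**
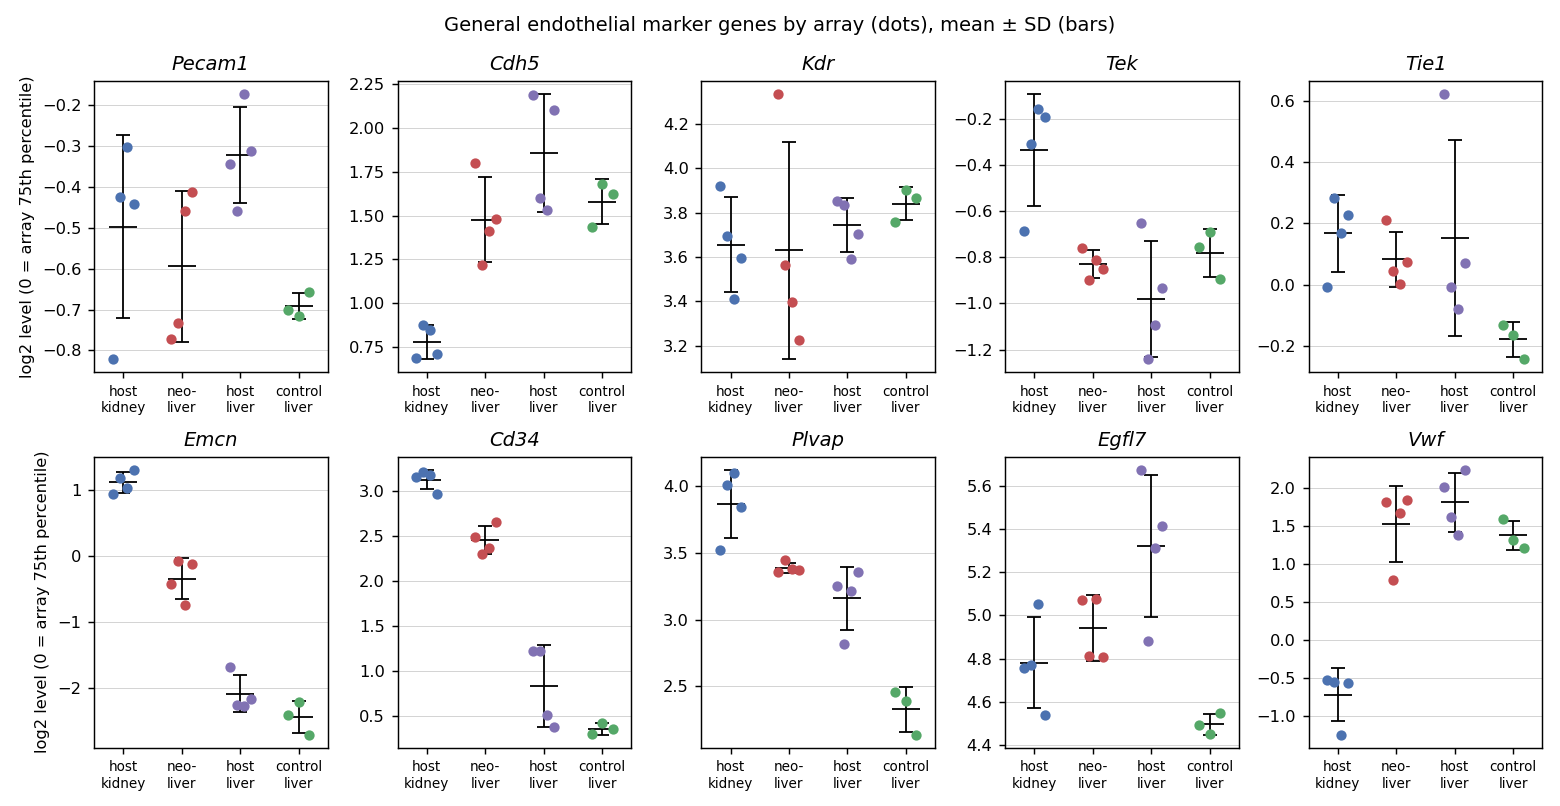
Log2 level of each of the 10 markers on every array (dots, coloured by tissue), with the group mean and SD (black bars, 4 arrays each and 3 for control liver); each panel has its own axis. Emcn and Cd34 descend from host kidney through neo-liver to both livers, and Vwf is low in host kidney alone.

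Emcn encodes endomucin, a sialomucin of capillaries and veins. Its level was 0.95, 1.19, 1.04 and 1.31 in host kidney replicates 1 to 4, and -0.42, -0.08, -0.74 and -0.12 in neo-liver. It was -1.68, -2.26, -2.28 and -2.16 in host liver, and -2.41, -2.22 and -2.71 in control liver. The host kidney, neo-liver and liver arrays did not overlap. Neo-liver exceeded host liver by 1.75 ± 0.18 (SE; 3.37-fold, limma adjusted p = 5.056e-06) and control liver by 2.11 ± 0.19 (4.31-fold, adjusted p = 1.505e-06), and differed from host kidney by -1.46 ± 0.18 (2.76-fold lower, adjusted p = 1.468e-05). Host and control liver differed by 0.35 ± 0.19 (adjusted p = 0.198) and overlapped.

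Cd34 encodes a sialomucin of endothelial and progenitor cells that most liver sinusoids carry little of. Its level was 3.16, 3.21, 3.18 and 2.97 in host kidney, and 2.49, 2.30, 2.37 and 2.66 in neo-liver. In host liver it was 1.22, 1.22, 0.51 and 0.37, and in control liver 0.29, 0.42 and 0.35. Neo-liver thus stood above every liver array and below every kidney array, and the wider spread lay within host liver. There replicates 1 and 2 shared a slide, as did replicates 3 and 4, so slide and mouse cannot be told apart in that spread. It exceeded host liver by 1.63 ± 0.18 (3.09-fold, adjusted p = 1.069e-05) and control liver by 2.10 ± 0.19 (4.29-fold, adjusted p = 1.628e-06), and differed from host kidney by -0.67 ± 0.18 (1.60-fold lower, adjusted p = 0.00631). A second, dimmer probe of Cd34 was above background on 8 of 15 arrays only, so its differences are not given.

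Plvap encodes the protein of the diaphragms that span fenestrae and caveolae. Its level was 3.52, 4.01, 4.10 and 3.84 in host kidney and 3.36, 3.44, 3.38 and 3.37 in neo-liver. Host liver had 3.25, 2.82, 3.21 and 3.36, and control liver 2.46, 2.39 and 2.14. Control liver was the lowest group and overlapped with no other. Neo-liver was 1.06 ± 0.15 above control liver (2.09-fold, adjusted p = 9.151e-05) and differed from host kidney by -0.48 ± 0.14 (1.40-fold lower, adjusted p = 0.0121). Host liver was itself 0.83 ± 0.15 above control liver (1.78-fold, adjusted p = 0.00233). Its difference from neo-liver, 0.23 ± 0.14 with a 95% interval of -0.08 to 0.54, did not pass the test (adjusted p = 0.203), although the groups did not overlap, with the nearest arrays both at 3.36. The second probe of Plvap gave the same direction in all 6 comparisons.

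Vwf encodes von Willebrand factor, which is made by endothelial cells and by megakaryocytes and binds platelets. Its level was -0.53, -0.55, -1.25 and -0.57 in host kidney and 1.82, 0.79, 1.66 and 1.84 in neo-liver. Host liver had 2.01, 1.61, 1.37 and 2.23, and control liver 1.59, 1.31 and 1.21. Every array of the 3 liver tissues lay above every host kidney array, and the liver tissues overlapped with each other. The excess over host kidney was 2.25 ± 0.26 in neo-liver (4.76-fold, adjusted p = 8.352e-06), 2.53 ± 0.26 in host liver (5.78-fold, adjusted p = 9.765e-07) and 2.10 ± 0.28 in control liver (4.28-fold, adjusted p = 1.498e-05). Neo-liver differed from host liver by -0.28 (95% interval -0.84 to 0.27) and from control liver by 0.15 (-0.44 to 0.75), and neither passed the test.

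Cdh5 encodes VE-cadherin, the adhesion protein of endothelial junctions. Its level was 0.69, 0.88, 0.85 and 0.71 in host kidney, 1.80, 1.22, 1.41 and 1.48 in neo-liver, 2.19, 1.60, 1.53 and 2.10 in host liver, and 1.43, 1.68 and 1.62 in control liver. All kidney arrays lay below all others. Neo-liver exceeded host kidney by 0.70 ± 0.16 (1.62-fold, adjusted p = 0.00264), and host and control liver did so by 1.08 ± 0.16 and 0.80 ± 0.17. Neo-liver was -0.38 ± 0.16 from host liver (adjusted p = 0.069), with the lower value in neo-liver in 4 of 4 same-numbered pairs.

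Tek encodes the angiopoietin receptor Tie2. Its level was -0.69, -0.31, -0.16 and -0.19 in host kidney, -0.76, -0.90, -0.81 and -0.85 in neo-liver, -0.65, -1.24, -1.09 and -0.93 in host liver and -0.76, -0.69 and -0.90 in control liver. Tek was lower than in host kidney in neo-liver (-0.49 ± 0.14, adjusted p = 0.00904), in host liver (-0.64 ± 0.14, adjusted p = 0.00098) and in control liver (-0.44 ± 0.15, adjusted p = 0.0185). The last call was lost when host kidney replicate 3 or 4 or control liver replicate 3 was left out (adjusted p = 0.0516, 0.0506 and 0.0734). Its 3 liver tissues did not differ from each other by more than their spread.

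Egfl7 encodes a factor secreted by endothelial cells into their matrix. Its level was 4.76, 4.77, 5.05 and 4.54 in host kidney, 5.07, 4.81, 5.08 and 4.81 in neo-liver, 5.67, 4.88, 5.31 and 5.41 in host liver and 4.49, 4.45 and 4.55 in control liver. Control liver lay below all arrays of neo-liver and host liver. Host liver exceeded control liver by 0.82 ± 0.17 (1.77-fold, adjusted p = 0.00406) and host kidney by 0.54 ± 0.16 (adjusted p = 0.00729). Under quantile normalization the difference between host liver and host kidney changed sign, to -0.15. Neo-liver exceeded control liver by 0.45 ± 0.17 (adjusted p = 0.0421), a call lost without any 1 of the control livers or without neo-liver replicate 1 or 3 (adjusted p = 0.0758 to 0.109).

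The remaining members moved less. Pecam1, the junction protein CD31, had group means between -0.69 and -0.32. Kdr, the main VEGF receptor, had means between 3.63 and 3.84, with a single neo-liver array at 4.33 and the others at 3.56, 3.40 and 3.23. Tie1, the orphan relative of Tek, had means between -0.18 and 0.17. The 95% interval of the difference between neo-liver and host liver was -0.54 to -0.0019 for Pecam1, -0.54 to 0.31 for Kdr and -0.37 to 0.23 for Tie1. Pecam1 was lower in neo-liver in 4 of 4 same-numbered pairs (adjusted p = 0.0886). The second Kdr probe gave the opposite sign for neo-liver against host kidney (0.05) and for host against control liver (0.42), so no direction is given for this gene. With that probe Kdr was called higher in host liver than in host kidney (0.49, adjusted p = 0.0289). Without neo-liver replicate 1, the array at 4.33, Kdr was called lower in neo-liver than in host liver (-0.35, adjusted p = 0.0439) and control liver (-0.45, adjusted p = 0.0188).

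Against host kidney, 6 of the 10 members were called in neo-liver, Vwf and Cdh5 higher and Emcn, Cd34, Tek and Plvap lower, where 52.7% of all genes tested were called, 23.2% higher and 29.5% lower. The median difference was -0.09 over the members and -0.08 over all genes. Against host liver, 2 members were called, both higher (Emcn and Cd34), where 48.3% of all genes were called, 17.2% higher and 31.1% lower. The medians were -0.09 and -0.21. Against control liver, 4 members were called, all higher (Emcn, Cd34, Plvap and Egfl7), where 50.2% of all genes were called, 20.4% higher and 29.8% lower, with medians of 0.21 and -0.15. Groups did not overlap in 2 members higher and 4 lower than host kidney, against 21.1% and 28.3% of all genes. They did not overlap in 3 members higher and 0 lower than host liver, against 13.7% and 22.6%, and in 5 higher and 0 lower than control liver, against 21.9% and 35.1%.

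With same-numbered tissues treated as a random block, the count called against host liver rose from 2 to 5, as Cdh5, Egfl7 and Pecam1 were then called lower in neo-liver (adjusted p = 0.0313, 0.0227 and 0.0267). With that block 20.3% of all genes were called higher and 39.1% lower. The count was 4 without host liver replicate 2 and 4 without neo-liver replicate 1.

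**Figure D2:**
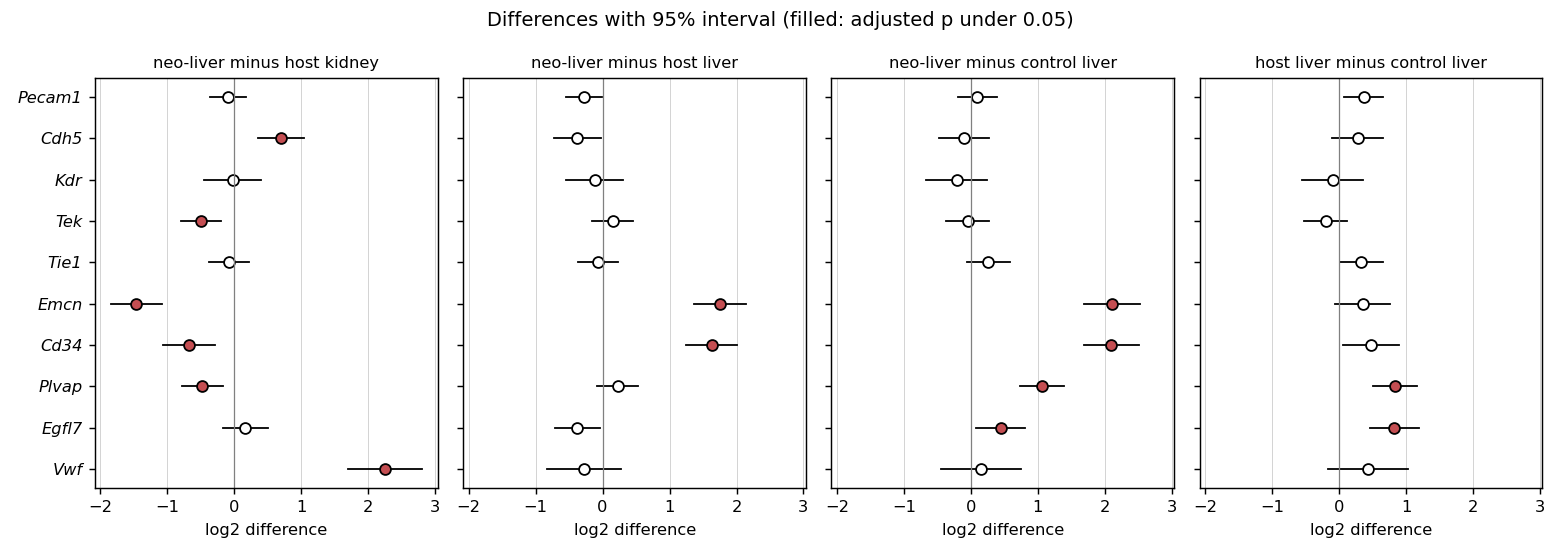
Difference in log2 level (dots) with its 95% interval (lines) for the 10 markers in 4 comparisons; filled dots had an adjusted p under 0.05. Emcn and Cd34 lie to the right of 0 against both livers and to the left of 0 against host kidney.

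Host liver and control liver differed in 2 members, Plvap and Egfl7, both higher in host liver, where 24.6% of all genes were called, 13.3% higher and 11.3% lower. The median difference was 0.36 over the members and 0.07 over all genes. In 4 members no host liver array overlapped with control liver, all higher in host liver (Plvap, Egfl7, Pecam1 and Tie1), against 21.4% of all genes higher and 16.1% lower. Centring arrays on their median, which moves all genes by 0.15 in this comparison, gave 5 called members, and the share of higher genes among all called went from 54.1% to 73.0%. Between the host organs, host liver minus host kidney, 7 members were called, 3 higher (Vwf, Cdh5, Egfl7) and 4 lower (Emcn, Cd34, Plvap, Tek), where 70.8% of all genes were called, 39.6% higher and 31.2% lower. Control liver minus host kidney gave 6 called, 2 higher (Vwf, Cdh5) and 4 lower (Emcn, Cd34, Plvap, Tek), where 66.6% were called, 36.3% higher and 30.2% lower. Of the members, Emcn had the largest difference, -3.22 ± 0.18 for host liver minus host kidney (9.30-fold lower) and -3.57 ± 0.19 for control liver minus host kidney (11.9-fold lower).

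Host kidney, neo-liver and host liver did not overlap for Emcn and Cd34, so any pairing of arrays keeps their order. The same holds for Plvap, and for Vwf against host kidney, so the values by mouse number add only sizes. Neo-liver minus same-numbered host liver was 1.26, 2.18, 1.54 and 2.04 for Emcn and 1.27, 1.09, 1.86 and 2.29 for Cd34. Neo-liver minus same-numbered host kidney was -1.37, -1.27, -1.78 and -1.43 for Emcn and -0.66, -0.91, -0.81 and -0.31 for Cd34. For Plvap neo-liver was above host liver in 4 of 4 numbers, by 0.01 to 0.63, and below host kidney in 4 of 4. Vwf was above host kidney in 4 of 4 numbers, by 1.34 to 2.91, and above host liver in 1 of 4.

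**Figure D3:**
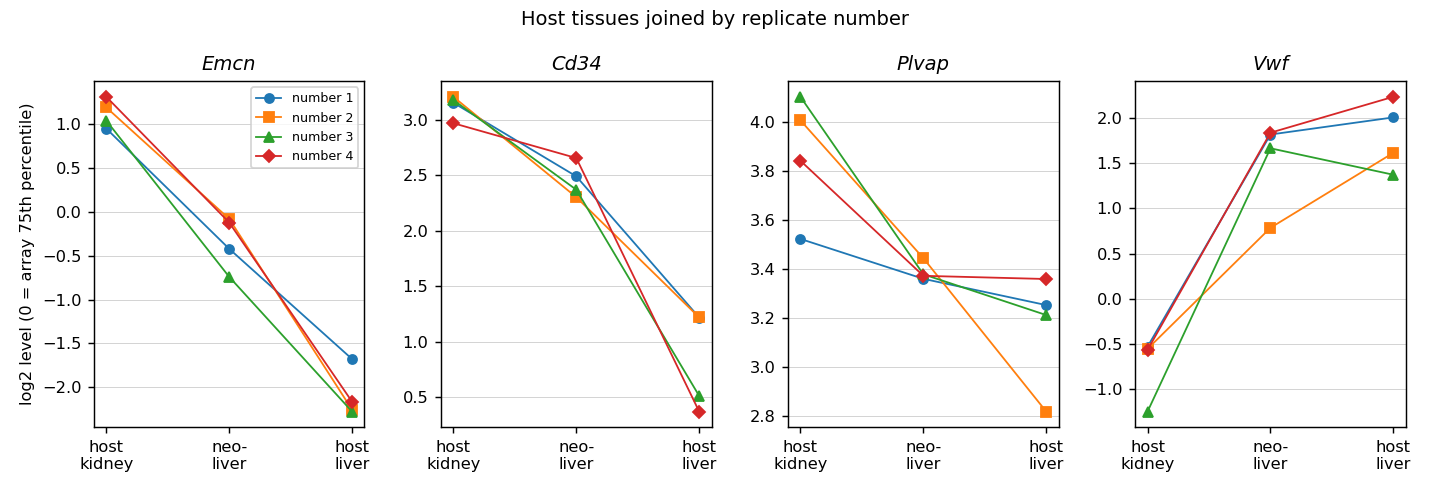
Log2 level of Emcn, Cd34, Plvap and Vwf in the host kidney, neo-liver and host liver with the same replicate number (joined symbols); axes differ between panels. The 4 lines of Emcn and of Cd34 all descend from kidney to liver, and those of Vwf all rise from kidney to neo-liver. Any pairing would give this, since these groups did not overlap.

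Because neo-liver arrays carried kidney RNA, each member's neo-liver signal was set against the part that its tubule share of mean host kidney signal would supply. For Emcn that part was 51.4%, 92.2%, 56.0% and 75.8% of the signal in replicates 1 to 4. For Cd34 it was 27.3%, 70.8%, 25.9% and 44.2%, and for Plvap 25.2%, 54.1%, 21.7% and 45.4%. For Vwf, low in kidney, it was 3.07%, 14.3%, 2.98% and 5.50%. Replicate 2, with the largest tubule share, had the highest neo-liver level of Emcn and Plvap and the lowest of Vwf, Cd34, Cdh5 and Tek.

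After the share was subtracted and the remainder scaled back to a whole array, an alternative chosen after seeing the data, Emcn in neo-liver stood 0.22 above host liver (adjusted p = 0.592) and 0.57 above control liver (adjusted p = 0.184), and its call was lost in both. Cd34 remained called, by 1.20 over host liver (adjusted p = 0.00341) and 1.67 over control liver (adjusted p = 0.00046). Plvap remained called over control liver, by 0.82 (adjusted p = 0.00179), as did Egfl7, by 0.48 (adjusted p = 0.0458). Vwf and Cdh5 stood 2.60 and 0.87 above host kidney, both called. The median of all genes after this step was -0.34 against host liver and -0.28 against control liver. In neo-liver replicate 2 the remaining Cd34 level was 1.26, close to host liver replicates 1 and 2, which shared a slide, at 1.22. In the other neo-liver arrays it was 2.31, 2.18 and 2.37. With the podocyte share in place of the tubule share, all 4 neo-liver arrays were at the lowest value set for Emcn, so no level is given for it. Cd34 then stood 0.72 above host liver (adjusted p = 0.0955), no longer called, and 1.19 above control liver (adjusted p = 0.0161). The podocyte share exceeded the tubule share on 4 of 4 arrays, and the share of kidney endothelium itself was not tested.

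**Figure D4:**
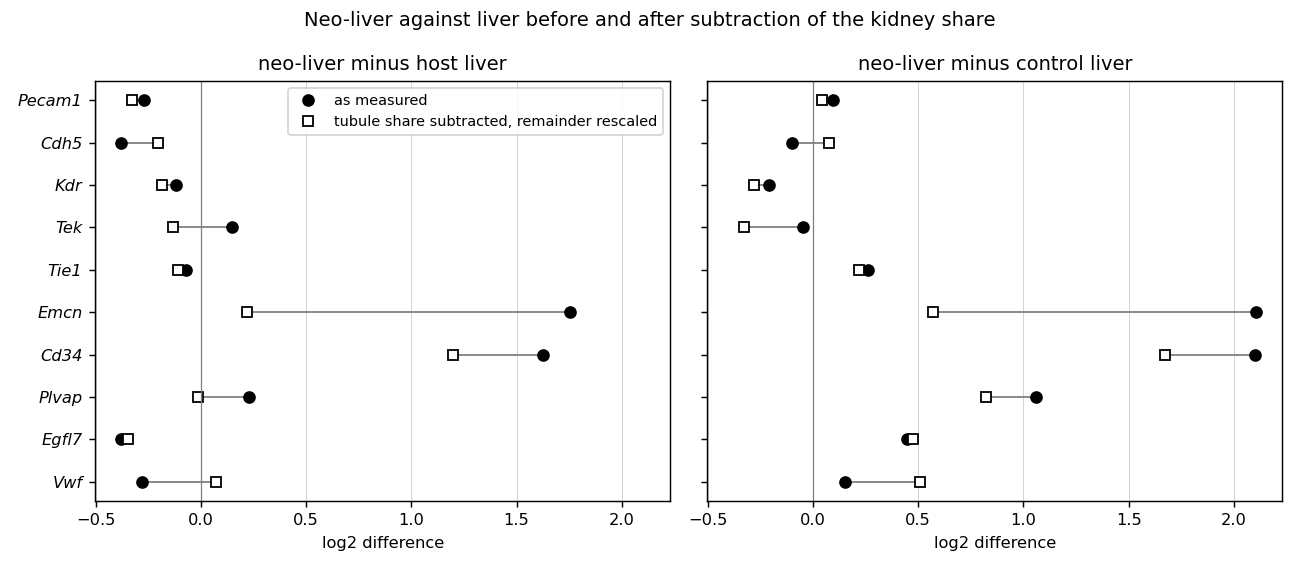
Log2 difference of neo-liver from host liver (left) and control liver (right) for the 10 markers as measured (filled circles) and after the tubule share of host kidney signal was subtracted and the remainder rescaled (open squares). Emcn moves from 1.75 to 0.22 and from 2.11 to 0.57, and Cd34 moves from 1.63 to 1.20 and from 2.10 to 1.67.

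Genes whose profile over the 15 arrays lay nearest to a member, by the root mean square difference after centring each gene, are named for members spanning at least 1 on the log2 scale. For Emcn they were Ctbp2 (0.17), Tulp3 (0.21) and Rab11fip3 (0.21), and for Cd34 Phldb1 (0.27), Icosl (0.27) and Jam3 (0.27). For Plvap they were B3glct (0.15), Peg13 (0.17) and Setd7 (0.19), for Vwf Atp8b1 (0.29), Il18bp (0.30) and Dmpk (0.32), and for Cdh5 C2 (0.12), Pip4k2b (0.13) and Tnfrsf1a (0.14). None of these is another member of the list.

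A second list of 22 genes shared by most endothelia was read beside the members. The counts of this list and of those that follow stand beside the shares of all genes called, which were 17.2% higher and 31.1% lower against host liver, 20.4% and 29.8% against control liver and 23.2% and 29.5% against host kidney. Against host liver 0 of 22 rose and 5 fell, with a median of -0.29. The falls were led by Cldn5, the claudin of endothelial tight junctions (-1.50 ± 0.22, adjusted p = 0.00011), Ptprb, the phosphatase that restrains Tie2 (-0.79 ± 0.19, adjusted p = 0.0047), and Icam2, an adhesion protein (-0.42 ± 0.16, adjusted p = 0.0402). Against control liver 2 rose, Tspan18 (0.84) and Ecscr (0.77), and 4 fell, led by Arhgef15 (-1.65), Cldn5 (-1.26) and Ptprb (-0.58), with a median of 0.00. Against host kidney 4 rose, led by S1pr1 (1.67), Ptprb (1.26) and Clec14a (0.96), and 5 fell, led by Adgrl4 (-1.14), Cldn5 (-0.75) and Esam (-0.72). Cldn5 was thus lower in neo-liver than in each of the other tissues, and after rescaled subtraction the differences were -1.92 from host liver, -1.68 from control liver and -1.17 from host kidney, all called.

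Of the 12 ligands and receptors of the VEGF and angiopoietin systems 11 were tested. Against host liver 3 rose: Angpt1, the Tek agonist (2.59 ± 0.30, adjusted p = 1.54e-05), Vegfd, a lymphatic VEGF (1.47 ± 0.27), and Angpt2, the context-dependent Tek ligand (0.84 ± 0.29). Flt4, the receptor of Vegfc and Vegfd, and Vegfa fell, by 0.66 and 0.61 on the log2 scale. Against control liver 5 rose and 1 fell, led by Vegfd (2.24) and Vegfb (2.18), with Vegfa at -0.65. Vegfb was also 2.03 higher in host liver than in control liver. After rescaled subtraction, Angpt1 (1.76) and Vegfd (1.55) were still called against host liver. Angpt2 was not (-2.03, adjusted p = 0.125), and its SE had risen from 0.29 to 0.998. Against control liver Vegfd was then called (2.31, adjusted p = 0.000115). Angpt1 (0.32, adjusted p = 0.524) and Angpt2 (-1.39, adjusted p = 0.32) were not.

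Of 12 genes of Notch and ephrin signalling, 5 rose and 2 fell against host liver. The Notch targets Hey1 (1.46 ± 0.27) and Heyl (1.29 ± 0.24) rose, while the ligand Dll1 (-0.59) and the venous receptor Ephb4 (-0.41) fell. Jag2, a Notch ligand, was not well above background on any array of either liver group. Of 8 arterial genes, Hey1 among them, 5 rose against host liver, led by Sema3g, at least 3.04-fold since no host liver array was above background, and Gja5, a connexin (1.48). Gja4, another connexin, fell (-0.71). After rescaled subtraction Gja5 was at -0.90 ± 0.69 against host liver (adjusted p = 0.317), while Hey1 (1.57) and Heyl (1.43) were called. Against control liver Hey1 was then called (0.94, adjusted p = 0.0312) and Heyl was not (0.50, adjusted p = 0.187). As measured, the mean level of Heyl was -2.01 in neo-liver, -2.37 in control liver and -3.30 in host liver. Hey1 and Heyl were each above background on 3 of 4 host liver arrays.

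Of 9 genes of activated or venular endothelium tested, 5 rose and 1 fell against host liver, and 7 rose and 0 fell against control liver, where 17.2% and 20.4% of all genes rose. Esm1, a proteoglycan of sprouting tip cells, rose by 4.07 ± 0.76 over host liver (adjusted p = 0.00078) and by 6.50 ± 0.82 over control liver, where only 1 of 3 arrays was above background. After rescaled subtraction it stood at 2.65 (adjusted p = 0.0403) and 5.08 (adjusted p = 0.00166). Aplnr, the apelin receptor, rose over host liver by 2.24 ± 0.22, where 1 of 4 arrays was above background. Its ligand Apln was at least 3.14-fold higher than in host liver and at least 4.15-fold higher than in control liver, in both of which it was not above background on any array. After rescaled subtraction Apln was at the lowest value set on every neo-liver array, so no difference from either liver is given for it. After the same step Aplnr was called over host liver (1.45, adjusted p = 0.00912) and not over control liver (0.28, adjusted p = 0.593). Against host kidney, Ackr1, the venular chemokine receptor (4.31 ± 0.27), Vcam1 (2.04 ± 0.40) and Selp, stored with Vwf (1.28 ± 0.16), rose, and Apln fell by 3.65.

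Of 19 endothelial transcription factors tested, 4 rose and 1 fell against host liver. Foxc1 was at least 3.18-fold and Foxc2 at least 4.31-fold higher, since neither was above background on any host liver array, and Gata2 rose by 1.60 ± 0.19. Sox7 fell by 0.58 against host liver and by 1.27 against control liver. Foxc1 and Foxc2 were above background on 4 of 4 host kidney arrays. After rescaled subtraction Foxc1 was at the lowest value set on every neo-liver array, so no difference is given for it. Gata2 then stood at -0.01 against host liver. Foxc2 was at 2.07 and called, set against host liver arrays of which none was above background.

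**Figure D5:**
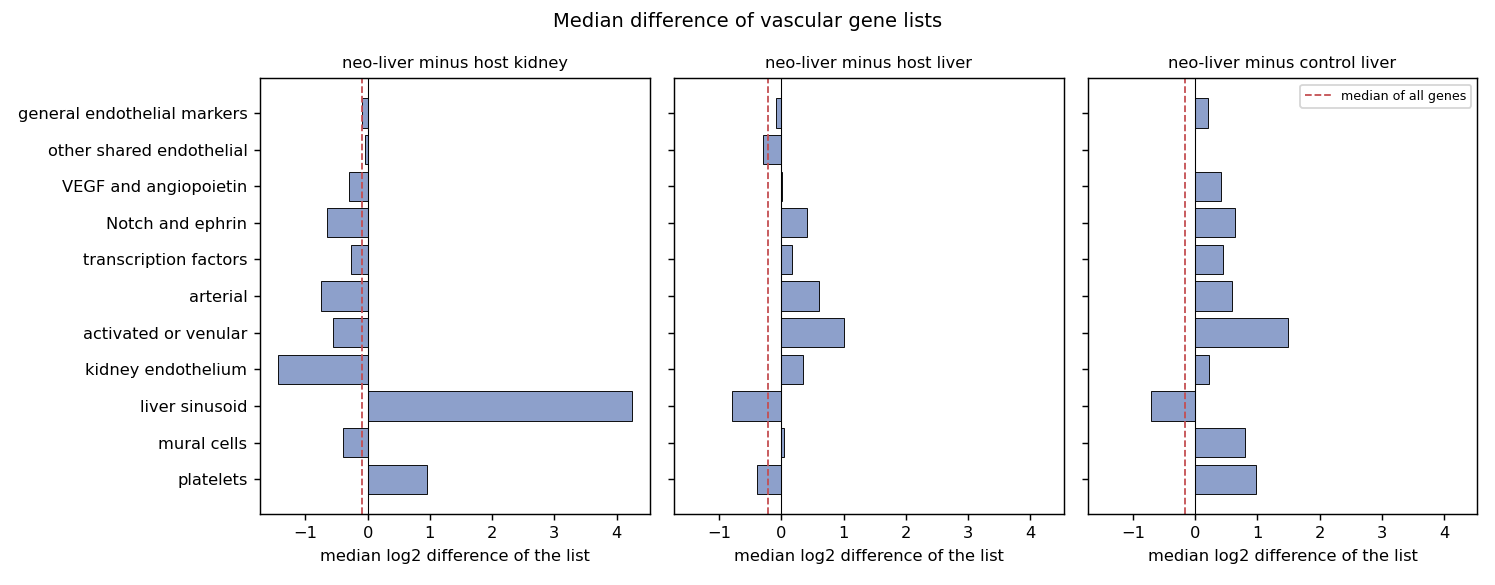
Median log2 difference of 11 vascular gene lists (bars) between neo-liver and host kidney, host liver and control liver; the dashed line is the median of all genes tested. The medians of the general markers are -0.09, -0.09 and 0.21, where those of all genes are -0.08, -0.21 and -0.15, and the sinusoid list is far to the right against host kidney and to the left of it against both livers.

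Organ-specific endothelial genes were read beside the general markers. Of 15 sinusoid genes tested, 14 rose and 0 fell in neo-liver against host kidney, with a median of 4.25, led by Clec4g (8.10 ± 0.22), Oit3 (8.04 ± 0.26) and Gata4 (7.03 ± 0.40). In host kidney Clec4g was above background on 4 of 4 arrays, and Oit3 and Gata4 on 1 of 4 each. Against host liver 1 rose, Lyve1, a hyaluronan receptor (1.56 ± 0.43), and 8 fell, led by the scavenger receptor Stab2 (-1.52 ± 0.20), Clec4g (-1.31 ± 0.22) and Dnase1l3 (-1.24 ± 0.16). After rescaled subtraction 1 rose and 5 fell, where 6.52% of all genes were called higher and 28.6% lower. Of 5 genes of glomerular and vasa recta endothelium, 1 rose and 4 fell against host kidney, 2 rose and 0 fell against host liver, and 1 rose and 1 fell against control liver. The rise against host kidney was that of Ehd3, a membrane trafficking protein (1.69 ± 0.21). Its mean level was 2.20 in host kidney, 3.88 in neo-liver, 4.32 in host liver and 4.49 in control liver. Ehd3 was thus higher in both livers than in host kidney, against the name of its list. Igfbp5, which binds insulin-like growth factors, was 2.36 ± 0.59 above host liver. Its mean level was 1.90 in neo-liver, 1.61 in control liver, -0.46 in host liver and 3.65 in host kidney. After rescaled subtraction it stood at -0.94 ± 1.41 against host liver and -3.01 ± 1.52 against control liver, neither called. Plat, the tissue plasminogen activator, was 4.60 ± 0.31 above host liver, where 2 of 4 arrays were above background. Against control liver, where it was above background on 0 of 3 arrays, Plat was at least 24.5-fold higher. The vasa recta transporter Slc14a1 was above background on 0 of 4 neo-liver arrays and on 4 of 4 host kidney arrays, at least 6.00-fold higher in the latter. After rescaled subtraction 0 of the 5 rose against either liver, where 6.52% of all genes were called higher against host liver and 11.4% against control liver. Plat was then at 2.09 ± 1.01 over host liver (adjusted p = 0.119) and 2.78 ± 1.09 over control liver (adjusted p = 0.0566).

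Other cells that can make members were measured too. Platelet and megakaryocyte genes, which accompany Vwf, summed to a linear level of 2.49 to 4.45 in host kidney, 3.30 to 10.6 in neo-liver, 3.75 to 11.02 in host liver and 1.93 to 2.01 in control liver. Of 8 tested, 6 rose and 0 fell in host liver against control liver, led by Gp9 (2.54 ± 0.63), Pf4 (2.29 ± 0.56) and Ppbp (2.26 ± 0.62), and 4 rose and 0 fell in neo-liver against control liver, where 13.3% and 20.4% of all genes rose. Against host kidney 1 rose and 1 fell in neo-liver, 5 rose and 1 fell in host liver and 0 rose and 2 fell in control liver, where Vwf was 2.25, 2.53 and 2.10 higher. Leukocyte genes, among which some cells make Pecam1 or Cd34, summed to 76.1 to 119 in neo-liver, 79.0 to 117 in host liver, 64.1 to 89.3 in control liver and 60.9 to 94.8 in host kidney. Of the 10, 0 rose and 0 fell against host liver and 4 rose against control liver. The part of these cells in the members' differences was not tested.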

How the data were processed

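RNA of 15 tissue samples was hybridised to one-colour Cy3 arrays. The deposited scanner files hold intensity values from Agilent Feature Extraction 10.10.1.1, background-subtracted and detrended within an array, per the file headers. A deposited series table of log2 values, used as an alternative, lay within 0.01 of log2 processed signal minus 1 constant per array for 99.8% of probes (column medians -3.74 to -3.36).

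Spots of a probe were averaged (59305 spots, 55681 probes) and each array's 75th percentile was subtracted from log2 signal. Of these, 123 probes with an outlier flag were dropped. Probes well above background on every array of at least 1 group were kept (34904, of which 20340 had a symbol by RefSeq accession), and the brightest probe of a symbol was used, giving 15594 genes. The array design was annotated on mm9, and coordinates in the text are RefSeq's on GRCm38.p6. All 15 arrays entered 1 limma fit (limma 3.58.1 with statmod 1.5.0, in R 4.3.3) with a mean per group. A gene with a Benjamini-Hochberg adjusted p (two-sided) under 0.05 was called. The fit was tested on simulated data. Precision is limited by how few arrays there are.

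Where no array of a group was above background, a fold is "at least", against the higher of the gene's own signal and the lowest signal above background on each array. The tubule share of an array is its linear signal in excess of control liver, divided by the excess in host kidney, as a median over the 20 tubule markers, each 8-fold or more above control liver in kidney. Same-numbered host tissues correlated best with each other in 12 of 12 cases (r 0.179 to 0.577 across genes), and numbers therefore stand for mice here.

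All members are named. From other lists up to 3 called genes per direction are named, by size of difference. The members and lists were chosen with earlier results of these data known. Normexp used median spot and background signals with an offset of 50. Angpt4, Foxf1, Sele, Wnt2, Gp1ba and Gp6 were above background in no whole group, and Ccl21a was not matched, so these were not tested.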

Additional observations from a re-analysis of the deposited data

Results flagged for a closer look

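In 2 of 30 groups of 4 arrays, 1 array stood apart from the others by Dixon's criterion, which chance meets in about 1 group of 20. Both concerned Vwf. Host kidney replicate 3 had a level of -1.25, where the nearest other host kidney array had -0.57. Neo-liver replicate 2 had 0.79, where the nearest other neo-liver array had 1.66, and this array also had the largest tubule share, 39.9%.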

How the results depend on the processing

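Over 780 member differences recomputed under alternatives other than leaving out an array, 710 kept their direction and side of the threshold, 10 lost and 27 gained a call and 33 changed sign, 4 of which had been called. Against host liver, 2 members were called in neo-liver as reported, and 5 with median centring, 5 with the replicate number as a random block, 7 with the tubule share subtracted (1 higher and 6 lower), 1 with it subtracted and rescaled and 1 with the podocyte share. That 1 is Emcn, called lower from the floor set for it, and Cd34 was lost (adjusted p = 0.0955). Against control liver 4 became 2 with plain subtraction, Cd34 higher and Tek newly lower (-0.78). Plain subtraction moved the median of all genes to -0.79 against host liver, with 3.61% called higher and 62.7% lower, and to -0.73 against control liver, with 6.47% and 56.9%. With rescaling, 6.52% of all genes were called higher and 28.6% lower against host liver. Host against control liver rose from 2 to 5 with median centring. Leaving out 1 array gave 2 to 4 called against host liver, 3 to 4 against control liver, 6 to 6 against host kidney, 2 to 3 for host against control liver, 7 to 7 between the host organs and 5 to 8 for control liver against host kidney. With a fixed replicate block Pecam1 was called lower than in host liver (adjusted p = 0.048), and the pairing changed no call beyond this and the 3 gained with the random block. Sign changes were as follows, and the cause was not tested unless given. Quantile normalization gave -0.0932 and 0.0593 for Egfl7 in neo-liver against host kidney and host liver, 0.21 and 0.12 for Kdr against both livers, 0.0189 for Cdh5 against control liver, and -0.15 (Egfl7), -0.40 and -0.31 (Kdr) for host or control liver against host kidney. Median centring gave -0.0463 for Tek against host liver, 0.0507 for Kdr in host against control liver and 0.20 for Tie1 between the host organs, and normexp gave -0.0485 for Kdr there. The mean of probes and the most variable probe gave 0.0122 and 0.0507 for Kdr against host kidney and 0.16 and 0.42 in host against control liver. Plain subtraction gave -0.26 for Egfl7 against host kidney, -0.23, -0.46 and -0.58 for Emcn, Plvap and Tek against host liver and -0.41 and -0.23 for Pecam1 and Tie1 against control liver. Rescaled subtraction gave -0.013, -0.13 and 0.0718 for Plvap, Tek and Vwf against host liver and 0.0742 for Cdh5 against control liver. The podocyte share gave -4.34 and -3.99 for Emcn against host and control liver, which rest on the floor set on 4 of 4 arrays and are no measure of its level, and -0.29, -0.42 and 0.35 for Plvap, Tek and Vwf against host liver, and 0.24 and -0.0104 for Cdh5 and Pecam1 against control liver. Leaving out an array changed the sign only of uncalled differences: Kdr in neo-liver against host kidney (-0.26 to 0.11) and host liver (-0.35 to 0.0187), and Tie1 in neo-liver against host liver (-0.15 to 0.0885) and between the host organs (-0.17 to 0.0601). Egfl7 against control liver was not called with median centring (adjusted p = 0.0822) or no filter (0.0569), nor Tek in control liver against host kidney with normexp (0.0847), nor Cdh5 against host kidney with plain subtraction (0.0757). Among all called genes, the share higher in neo-liver went from 35.6% to 51.1% (quantile) and 23.2% (median centring) against host liver and from 40.7% to 52.3% (quantile) against control liver.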

Other observations

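Vascular mural cells, the pericytes and smooth muscle that surround endothelium, were measured by 12 genes. Against host liver 3 rose and 1 fell in neo-liver: Cspg4, the pericyte proteoglycan NG2 (2.51 ± 0.24, limma adjusted p = 2.51e-06), Pdgfrb, the PDGF receptor of pericytes (1.52 ± 0.17, adjusted p = 1.268e-05), and Notch3 (0.87 ± 0.17) rose, and Kcnj8, a potassium channel of pericytes, fell (-0.46 ± 0.18). Against control liver 6 rose and 2 fell, led by Cspg4 (2.85), Pdgfrb (2.01) and Notch3 (1.21), with Mcam (-1.53) and Higd1b (-0.93) lower. Cspg4 was above background on 1 of 4 host liver and 1 of 3 control liver arrays. After the rescaled subtraction of the tubule share, Pdgfrb stood 1.68 above host liver and 2.18 above control liver and Cspg4 0.83 and 1.17, all called. Notch3 was then at 0.42 (adjusted p = 0.309) and 0.76 (adjusted p = 0.0897), and Kcnj8 at -0.27 from host liver (adjusted p = 0.236), none of them called. Host liver against control liver had 2 rises, Kcnj8 (1.25) and Abcc9 (0.83), and 2 falls.

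Of 5 lymphatic genes tested, 2 rose and 2 fell against host liver. Pdpn, podoplanin, which podocytes also make, rose by 3.02 ± 0.26 and Lyve1 by 1.56 ± 0.43, while Prox1, the lymphatic regulator that hepatocytes also express, fell (-1.10 ± 0.30), as did Flt4 (-0.66 ± 0.19). After rescaled subtraction Lyve1 was at 2.00 (adjusted p = 0.00385) and called, whereas Pdpn (0.86, adjusted p = 0.477), Prox1 (-0.70, adjusted p = 0.0674) and Flt4 (-0.34, adjusted p = 0.209) were not.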
